A study of Mus musculus with 6 samples.

Results

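The imprinted growth network is described here by 10 genes (H19, Igf2, Igf2r, Grb10, Cdkn1c, Plagl1, Peg3, Dlk1, Meg3 and Mest), taken by gene symbol from a table of 33971 genes. All 10 were in the table and passed the filter on low counts. RNA sequencing compared articular cartilage of wild-type (WT) mice aged 2 months with that of wild-type mice aged 18 months, in 3 libraries per age. The labels give no strain, and the study's methods describe male mice. They do not say how many animals went into a library, so the spread between libraries may be partly technical. For every gene and library the authors deposited a read count and an FPKM value, a level that accounts for transcript length and library size. The genes were chosen by symbol with their count and FPKM differences between the ages in these 6 libraries already known. Their fold changes are therefore a description without a test.

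Imprinted genes are read mainly from 1 of the parental chromosomes, which is set by DNA methylation laid down in the egg or the sperm. In mice H19, Igf2r, Grb10, Cdkn1c and Meg3 are expressed mainly from the maternal copy, and Igf2, Plagl1, Peg3, Dlk1 and Mest mainly from the paternal copy. Several lie in clusters in which a noncoding RNA and a growth factor share control elements. They are known for high expression in fetal tissue, including the growth plate, and for falling together as young mammals slow their growth. H19 and Igf2 are the best-known pair. IGF2 drives growth through the IGF1 receptor, while the IGF2 receptor takes it up for breakdown.

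The libraries held 48171507 to 59085179 counts. Col2a1 and Acan, which encode the main collagen and proteoglycan of cartilage, were high at 2 months. All 16 chondrocyte markers were called lower at 18 months, and the summed FPKM of that list was 11810 to 14150 at 2 months and 341 to 1611 at 18 months. Neutrophil markers, led by S100a9, summed to 8.95, 3668 and 58.2 FPKM in 2-month replicates 1, 2 and 3 and to 42220 to 47240 at 18 months. All 12 were higher in every 18-month library, and 0 of 12 were called (3 at an unadjusted p-value below 0.05, edgeR). The corresponding sums for erythroid markers, led by Hbb-bs, were 288 to 7378 and 29920 to 39670 FPKM. For macrophage markers, led by Lyz2, they were 13.4 to 645 and 3880 to 5195 FPKM. No listed marker was at 0 in every library. Xist, the RNA of the inactive X chromosome, was at 89.5 to 101 FPKM at 2 months and at 0.00875 to 0.0261 FPKM at 18 months. The Y-linked Ddx3y ran the other way, at 0 to 0.0342 and 13.3 to 14.5 FPKM. The 2-month libraries thus had a female pattern and the 18-month libraries a male one, although the methods describe male mice. Age, this sex pattern and marker content cannot be told apart between the groups. In whole tissue fewer cells of a type and less RNA per cell cannot be told apart either.

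All 10 genes were lower in every 18-month library than in every 2-month library, which the choice of genes fixes. Of all tested genes, 34.6% were lower in this way and 68.6% did not overlap in either direction. Genes were called at a Benjamini-Hochberg adjusted p-value below 0.05 in edgeR's quasi-likelihood test with a change of more than 1 on the log2 scale. By that rule 10 of 10 were called lower, beside 21.3% of the 20397 genes tested. Of those 20397 genes, 14.9% were called higher and 36.3% in either direction. The median log2 fold change of the 10 genes was −3.80, a 14.0-fold lower level, and that of all genes tested was −0.021. The summed FPKM of the 10 genes was 405 to 509 at 2 months and 15.7 to 24.2 at 18 months. Both parental classes held genes with large and with smaller falls. The 5 maternally expressed genes ran from −6.45 to −2.28 on the log2 scale with a median of −3.72, and the 5 paternally expressed genes from −6.54 to −2.43 with a median of −4.26. Nearest to the limit of the rule was Igf2r at −2.28.

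**Figure D1:**
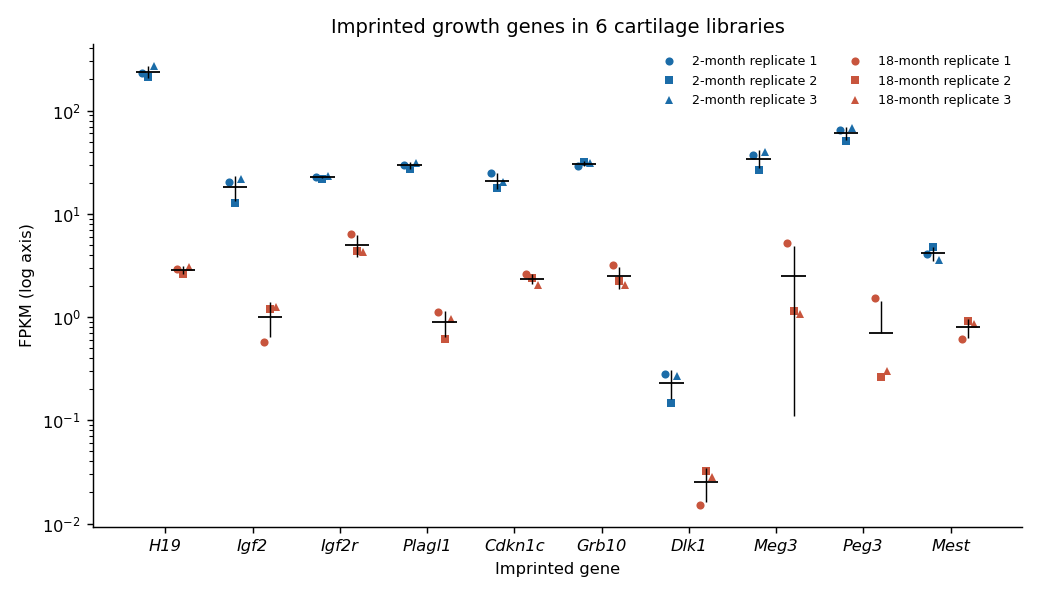
FPKM of the 10 imprinted growth genes on a log axis in 3 libraries of 2-month (blue) and 3 of 18-month (red) cartilage; horizontal bars are means, vertical bars SD, drawn upward alone for 18-month Peg3, where the SD exceeds the mean. H19 is the highest at 2 months (212 to 270.3 FPKM), Dlk1 the lowest (0.148 to 0.280 FPKM), and 18-month replicate 1 lies apart for Meg3 and Peg3.

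The composition of the network changed with its level. H19 made up 49.8% to 53.2% of the summed FPKM of the 10 genes at 2 months and 12.2% to 19.3% at 18 months. Igf2r, the receptor that removes IGF2, went from 4.59% to 5.41% to 26.3% to 27.7%. Meg3 held 6.56% to 7.98% at 2 months, and 21.7%, 7.35% and 6.78% in 18-month replicates 1, 2 and 3, so its share was higher in replicate 1 alone. The 2-month means spanned a 1026-fold range from H19 to Dlk1. In the 2-month order Cdkn1c lay between Igf2r and Igf2 and overlapped both, while Igf2r and Igf2 did not overlap each other. The libraries of Grb10, Plagl1 and Meg3 also overlapped. At 18 months Igf2r had the highest mean (4.98 FPKM), followed by H19, Meg3, Grb10 and Cdkn1c at 2.87 to 2.35 FPKM, of which the mean of Meg3 rested on replicate 1.

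H19 is a long noncoding RNA that carries a microRNA precursor. Its gene (ENSMUSG00000000031) occupies chromosome 7, 142575529 to 142578143, on the minus strand of GRCm38. H19 was measured at 231, 212 and 270.3 FPKM in the 2-month libraries and at 2.95, 2.61 and 3.05 FPKM in the 18-month libraries. These values rest on 30552 to 37338 and 405 to 488 counts. The groups lay far apart, and the 18-month libraries had an SD of 0.233 FPKM (n = 3). On the log2 scale H19 changed by −6.45 (standard error 0.21), an 87.6-fold lower level at 18 months.

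The precursor of miR-675 is encoded within H19 exons at chr7:142577064-142577147 (minus strand, RefSeq, GRCm38.p6). It is shown because H19, its source, is the most abundant of the 10 genes at 2 months. Capitals mark the seed, bases 2 to 8, which pairs with target RNAs.
Mir675 hairpin: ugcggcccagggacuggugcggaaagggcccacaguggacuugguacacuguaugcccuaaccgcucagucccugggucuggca
mmu-miR-675-5p: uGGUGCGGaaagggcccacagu
mmu-miR-675-3p: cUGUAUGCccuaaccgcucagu
The table lists 1 count for the Mir675 locus in each of the 6 libraries. These libraries were made from polyadenylated RNA, which does not capture mature microRNAs, so the level of miR-675 was not measured.

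Igf2 encodes the growth factor ligand and lies on the same chromosome from 142650766 to 142666816, also on the minus strand. Its 2-month levels were 20.3, 12.7 and 21.8 FPKM, and its 18-month levels 0.579, 1.20 and 1.26 FPKM. The lowest value of each age was a library that also stood apart in its markers, 2-month replicate 2 and 18-month replicate 1. Igf2 changed by −4.26 ± 0.44 (standard error) on the log2 scale, a 19.1-fold lower level. Within each library the H19 to Igf2 ratio needs no scaling between libraries. Its log2 was 3.51, 4.06 and 3.63 at 2 months and 2.35, 1.12 and 1.28 at 18 months, without overlap. The noncoding RNA thus lost more than the ligand of its cluster, by 2.15 on the log2 scale. An antisense transcript, Igf2os, overlaps Igf2 and held 30 to 40 counts at 2 months and 0, 23 and 12 at 18 months. Whether the counting used the strand is not given in the sources used here, so reads of such pairs may not be separable.

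The genes beside H19 and Igf2 were not called lower. Mrpl23, a mitochondrial ribosomal protein gene 34782 bases from H19, had a log2 fold change of 0.032 (edgeR adjusted p = 0.874). Gm33148, between H19 and Igf2, was called higher at 4.12 (standard error 0.52, edgeR adjusted p = 0.0024), from 0.0455 to 0.130 FPKM at 2 months to 0.935 to 1.63 FPKM at 18 months. Gm7290, on the far side of Igf2, was at 0.46 (edgeR adjusted p = 0.506).

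Of the receptor genes, Igf2r (chromosome 17, 12682406 to 12769664, minus strand) encodes the uptake receptor that carries IGF2 to lysosomes. Igf2r stood at 22.9, 21.9 and 23.3 FPKM at 2 months and at 6.35, 4.35 and 4.23 FPKM at 18 months. The young libraries were nearly equal, and the highest aged library was replicate 1. Its log2 change of −2.28 (standard error 0.19) was at the small end of the 10 genes, and that of Mest or Dlk1 was smaller in some other fits. The Igf2r to Igf2 ratio therefore moved toward the receptor. Its log2 was 0.18, 0.79 and 0.096 at 2 months and 3.46, 1.86 and 1.75 at 18 months, a difference of 2.00 without overlap. Airn, the noncoding RNA that runs antisense to Igf2r and silences its paternal copy, fell as well, by 3.59 on the log2 scale (standard error 0.29, edgeR adjusted p = 0.0011).

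Grb10 (chromosome 11, 11930508 to 12037401, minus strand) encodes an adaptor that binds the insulin and IGF1 receptors and dampens their signal. Grb10 levels were 28.7, 32.0 and 31.3 FPKM at 2 months and 3.16, 2.21 and 2.04 FPKM at 18 months. Between the ages Grb10 changed by −3.72 ± 0.19 (standard error) on the log2 scale. Both flanking genes were lower too, Cobl at −4.23 (edgeR adjusted p = 0.0013) and the imprinted Ddc, which makes an enzyme of dopamine synthesis, at −2.25 (edgeR adjusted p = 0.016). Both are weakly expressed, at most 1.44 FPKM in any library.

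Among 12 tested genes for IGF2 receptors, their adaptors and fetal growth regulators, 8 were called lower and 2 higher, beside 21.3% lower and 14.9% higher of all genes, with a median log2 fold change of −2.04. The receptor Igf1r was lower by less than any of the 10 genes, at −1.15 (standard error 0.22, edgeR adjusted p = 0.0077), and Insr, the insulin receptor, was at 0.088 (edgeR adjusted p = 0.643). The adaptors differed in size. Irs1 was at −3.20 (standard error 0.15, edgeR adjusted p = 0.00071) and Irs2 at −1.38 (edgeR adjusted p = 0.020). The 3 IGF2 mRNA-binding proteins were all called lower, Igf2bp2 at −3.76, Igf2bp1 at −3.03 and Igf2bp3 at −2.70 (edgeR adjusted p at most 0.0043). Igf2bp1 was scarcely present, at 0.0792 ± 0.00986 FPKM (SD, n = 3) at 2 months. Plag1 (−3.30) and Hmga2 (−3.07), transcription regulators of the fetal growth programme, were called lower, while their relatives Plagl2 (1.34) and Hmga1 (2.03) were called higher. Lin28a, an RNA-binding protein of stem cells, was at 4.32 and not called (edgeR adjusted p = 0.085). It held 0, 384 and 12 counts in 2-month replicates 1, 2 and 3 and 2775 to 3044 counts at 18 months. Relative to the mean of the other young libraries, 2-month replicate 2 was higher on the log2 scale for Lin28a (5.95), Hmga1 (1.10) and Plagl2 (0.40).

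Cdkn1c encodes p57, an inhibitor of cyclin-dependent kinases that lets growth-plate chondrocytes leave the cell cycle. It lies on chromosome 7 from 143458339 to 143461050. Its levels were 24.9, 17.7 and 20.2 FPKM at 2 months and 2.61, 2.37 and 2.06 FPKM at 18 months. Cdkn1c changed by −3.24 ± 0.20 (standard error) on the log2 scale, and the 18-month libraries were close to each other. Kcnq1ot1, the noncoding RNA that silences the paternal Cdkn1c domain, was lower at −2.17 (standard error 0.15, edgeR adjusted p = 0.00083), from 0.359 ± 0.0224 to 0.0842 ± 0.00809 FPKM (SD, n = 3). The coding genes of the domain that flank Cdkn1c were not called, Kcnq1 at −0.092 (edgeR adjusted p = 0.946) and Slc22a18 at −0.34 (edgeR adjusted p = 0.774). Their levels overlapped between the ages. Proliferation markers, led by Mki67, were higher at 18 months (6 of 8 called, beside 14.9% of all genes). Their sum was 5.53 to 90.2 FPKM at 2 months and 320.1 to 332 FPKM at 18 months. What these have to do with the level of Cdkn1c was not tested.

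Plagl1 and Peg3 encode zinc finger transcription factors, and PLAGL1 is known as a regulator of other imprinted genes. Plagl1 (chromosome 10, 13060504 to 13130982) was at 29.7, 27.2 and 31.4 FPKM at 2 months and at 1.12, 0.619 and 0.947 FPKM at 18 months. This was a change of −5.11 on the log2 scale (standard error 0.28), a 34.6-fold lower level. The flanking genes Ltv1 (0.073, edgeR adjusted p = 0.585) and Sf3b5 (0.42, edgeR adjusted p = 0.046), for ribosome assembly and splicing, stayed below the fold limit.

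Peg3 (chromosome 7, 6703892 to 6730421, minus strand) had a fold change close to that of H19, and which of the 2 was larger depended on the fit. The FPKM values were 64.7, 50.2 and 67.2 at 2 months and 1.54, 0.265 and 0.300 at 18 months. One aged library, replicate 1, held over 5 times the level of the others, from 1414 counts against 228 and 261. The change of Peg3 was −6.54 on the log2 scale (standard error 0.90) and became −7.80 without that library. Without 18-month replicate 2 it was −6.15, beside −6.39 for H19. Usp29 and Zim1, imprinted genes that flank Peg3, were called lower. Usp29 starts 157 bases from Peg3 and changed by −5.71 (standard error 1.19, edgeR adjusted p = 0.011). Zim1, expressed from the maternal copy, changed by −9.04 (standard error 0.43, edgeR adjusted p = 0.00071), from 9.0 to 12.3 FPKM to 0.0109 to 0.0303 FPKM. Unlike Peg3, Zim1 was as low in 18-month replicate 1 as in the others.

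Mest, which encodes a membrane protein of the hydrolase family, lies on chromosome 6 from 30723547 to 30748462. Mest was measured at 4.08, 4.75 and 3.55 FPKM at 2 months and at 0.610, 0.908 and 0.865 FPKM at 18 months. A log2 change of −2.43 (standard error 0.23) was the smallest of the paternally expressed genes in this fit, while Dlk1 was smaller in limma on log2(FPKM + 0.1), at −1.38. Copg2, which overlaps Mest on the opposite strand, moved the other way by less than the fold limit, at 0.32 (standard error 0.084, edgeR adjusted p = 0.024). Cep41, 29798 bases away, was at −0.89 (edgeR adjusted p = 0.014) and not called, nor was the noncoding Lncpint at −2.18 (edgeR adjusted p = 0.108).

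The RefSeq table of promoter windows, 250 bases before to 50 after a start on GRCm38.p6, held 15 windows for 8 of the 10 genes and none for H19 and Cdkn1c. Their median number of CpG sites was 13, against 7 over 32817 windows. The letters TGCCGC, the binding motif of the imprint-keeping protein ZFP57, were searched on both strands. They stood in 6 of the 15 windows (40.0%) and in 11.6% of all windows. The motif itself contains a CpG, and the part of the higher CpG number in this share was not tested. The 6 windows include 2 of Mest that overlap almost entirely, so they share sequence. The palindrome GGGGCCCC, a motif of PLAGL1, stood in 1 of 15 windows (6.67%), that of Peg3, and in 1.07% of all. GCCATNTT, a motif of YY1, was in 0 of 15 windows and in 6.04% of all, and the GC box GGGCGG in 53.3% and 35.6%. TATAAA stood in the Meg3 window alone of the 15 (6.67%) and in 13.6% of all. Such matches describe letters and are not binding sites.

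3 windows are printed to show where these letters lie in genes that fell together. Capitals mark TGCCGC or its reverse complement GCGGCA in Mest and Meg3, and GGGGCCCC in Peg3.
Peg3, chr7:6730370-6730669, minus strand: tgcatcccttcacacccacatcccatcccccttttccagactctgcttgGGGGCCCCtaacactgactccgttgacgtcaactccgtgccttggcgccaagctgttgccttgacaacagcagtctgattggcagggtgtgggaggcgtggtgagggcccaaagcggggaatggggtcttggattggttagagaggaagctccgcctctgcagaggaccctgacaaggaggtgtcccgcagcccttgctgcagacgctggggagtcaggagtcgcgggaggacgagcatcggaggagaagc
Mest, chr6:30737800-30738099, plus strand: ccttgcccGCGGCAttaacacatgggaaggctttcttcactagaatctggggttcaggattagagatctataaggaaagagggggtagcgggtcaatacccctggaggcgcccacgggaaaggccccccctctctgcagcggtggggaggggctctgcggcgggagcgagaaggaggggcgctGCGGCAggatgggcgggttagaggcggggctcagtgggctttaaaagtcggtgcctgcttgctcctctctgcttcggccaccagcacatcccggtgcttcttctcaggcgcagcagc
Meg3, chr12:109540746-109541045, plus strand: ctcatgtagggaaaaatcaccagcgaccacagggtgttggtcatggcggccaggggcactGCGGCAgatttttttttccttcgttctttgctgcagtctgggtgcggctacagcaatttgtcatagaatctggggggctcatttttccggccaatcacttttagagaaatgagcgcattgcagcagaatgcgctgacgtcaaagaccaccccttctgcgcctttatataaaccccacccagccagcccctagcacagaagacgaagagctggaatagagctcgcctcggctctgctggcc
The Mest window holds 17 CpG sites with 2 matches, and those of Peg3 and Meg3 hold 13 CpG sites each with 1 match. Methylation was not measured in this series.

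Dlk1 and Meg3 lie in 1 domain of chromosome 12, with coding genes read from the paternal copy (Dlk1, Rtl1, Dio3) and noncoding RNAs from the maternal copy (Meg3, Rian, Mirg). Dlk1, a membrane ligand of the Notch type that holds back differentiation, spans 109452823 to 109463336. It was scarce at both ages, at 0.280, 0.148 and 0.267 FPKM at 2 months and 0.0152, 0.0322 and 0.0285 FPKM at 18 months. These levels rest on 89, 50 and 85 counts against 6, 12 and 11, which limits their precision. The log2 fold change was −3.21 (standard error 0.52).

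Meg3 (109541001 to 109571721), a long noncoding RNA, was far more abundant per length than Dlk1. Meg3 was at 37.0, 26.6 and 39.3 FPKM at 2 months and at 5.24, 1.16 and 1.08 FPKM at 18 months. Aged replicate 1 held 6370 counts and the others 1318 and 1243. The log2 fold change was −3.89 (standard error 0.74), and −5.00 without that library. The log2 ratio of Meg3 to Dlk1 was 7.04, 7.49 and 7.20 at 2 months and 8.43, 5.16 and 5.24 at 18 months. Unlike H19 and Igf2, this pair showed no common shift with age, since the aged libraries lay on both sides of the young ones.

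Within the 18-month group the other genes of the domain divided in replicate 1 alone. Parental class coincides here with coding or noncoding type, so these cannot be told apart. Rian was at −3.89 (edgeR adjusted p = 0.0082) and Mirg at −3.74 (edgeR adjusted p = 0.019) between the ages, and both were called lower. In 18-month replicate 1 Rian stood 2.27 and Mirg 2.80 on the log2 scale above the mean of the other replicates, beside 2.23 for Meg3. The coding Rtl1 (−4.31, edgeR adjusted p = 0.0019) and Dio3 (−4.60, edgeR adjusted p = 0.0043) were lower than the other replicates there, at −0.81 and −2.10, as was Dlk1 at −1.0. Rtl1 held 7, 12 and 10 counts at 18 months and Dio3 4, 17 and 12, so the coding genes rest on few reads. Begain, the next tested gene beyond Dlk1, was called lower at −2.26 (standard error 0.72, edgeR adjusted p = 0.043).

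**Figure D2:**
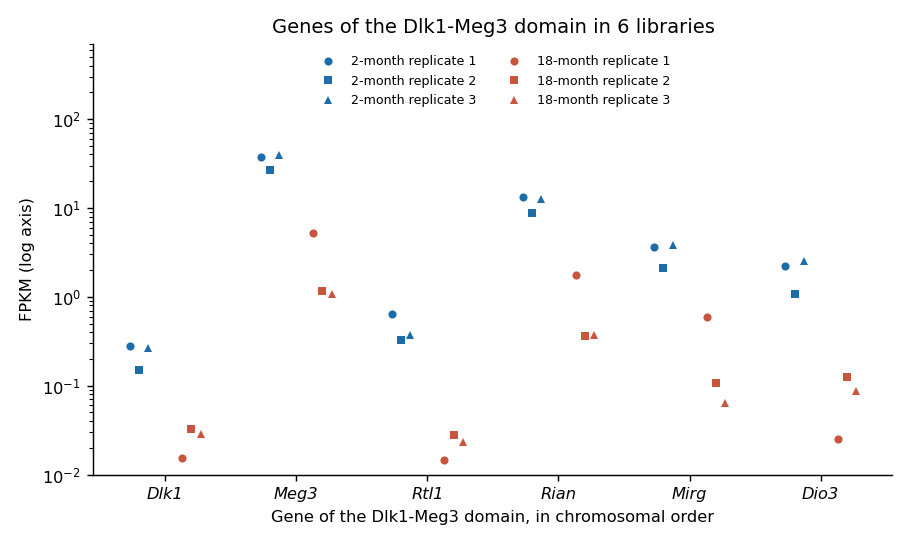
FPKM of 6 genes of the Dlk1-Meg3 domain on a log axis, in chromosomal order, with 1 point per library (blue 2 months, red 18 months). The noncoding Meg3, Rian and Mirg are highest in 18-month replicate 1 (red circle) among the aged libraries, and the coding Dlk1, Rtl1 and Dio3 are lowest in it.

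The same library divided the other members. Relative to the mean of 18-month replicates 2 and 3, replicate 1 was higher for Peg3 by 2.45 and for Meg3 by 2.23 on the log2 scale. Smaller excesses were found for Grb10 and Igf2r (0.57 each), Plagl1 (0.52) and Cdkn1c (0.24), while H19 was at 0.06. Replicate 1 was lower for Mest (−0.54), Dlk1 (−1.0) and Igf2 (−1.08). In all, 6 of the 10 genes were higher there than in both other replicates and 3 lower. The corresponding shares of all genes were not counted. The summed chondrocyte markers were 2.23 higher in that library and the fibroblast and tendon markers, led by Fmod, 1.37 higher. Osteoblast markers, led by Ibsp, were at 0.063 and neutrophil markers at −0.15. Beside Rian and Mirg, other imprinted genes with a similar excess were Zdbf2 (2.76), Snrpn (2.49) and Ndn (2.12), which are paternally expressed, so the excess was seen in both parental classes. Outside the imprinted genes it was also seen for Ctcfl, a germline relative of CTCF, at 2.24.

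**Figure D3:**
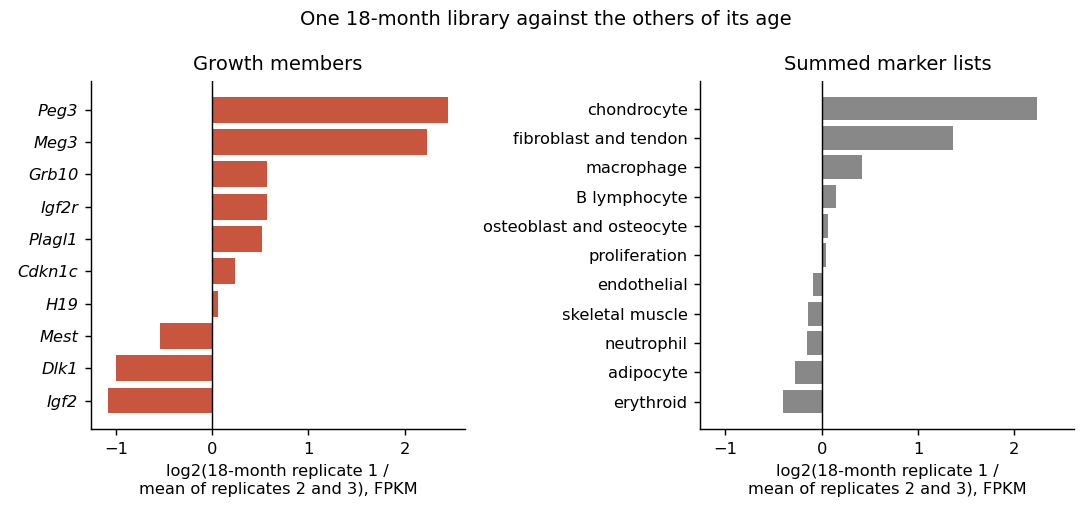
Log2 ratio of FPKM in 18-month replicate 1 to the mean of 18-month replicates 2 and 3, for the 10 genes (left) and for the summed FPKM of 11 marker lists (right). Peg3 (2.45) and Meg3 (2.23) stand beside the chondrocyte list (2.23), whereas Igf2 (−1.08) and Dlk1 (−1.0) point the other way.

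In the young group 2-month replicate 2 stood apart, with summed neutrophil markers 6.77 higher on the log2 scale than the mean of the other replicates and summed B lymphocyte markers, led by Ighm, 4.72 higher. Of the 10 genes, 8 were lower in it than in both other young libraries. The share of all genes that were lower there in this way was not counted. The differences were small beside those with age, at −0.88 for Dlk1, −0.73 for Igf2, −0.52 for Meg3 and −0.24 for H19. Grb10 (0.09) and Mest (0.32) were higher. Without 2-month replicate 2 and 18-month replicate 1 together, log2 fold changes of the 10 genes ran from −7.95 (Peg3) to −2.18 (Mest). H19 was at −6.55 in that fit. There 10 of 10 were called lower, beside 4847 of the 20907 genes tested.

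Dividing each gene by the summed FPKM of the 16 chondrocyte markers of its own library sets the fall beside that of cartilage genes. The log2 ratio of H19 to the list was −5.77, −5.80 and −5.71 at 2 months and −9.09, −7.05 and −6.80 at 18 months. H19 and Peg3 were lower relative to the markers without overlap, by 1.89 and 2.44 on the log2 scale. Igf2r was higher relative to them, by 2.26 without overlap. Meg3 was close to level, with a difference of 0.30 without overlap, and its aged libraries agreed within an SD of 0.043 (n = 3). Peg3 had the next smallest aged SD, 0.16, and the other 8 genes lay between 0.96 and 1.91. Differences for Mest (2.09), Cdkn1c (1.33), Dlk1 (1.27), Grb10 (0.82), Igf2 (0.26) and Plagl1 (−0.60) came with overlapping groups. Leaving out 18-month replicate 1 moved H19 to −1.16, Plagl1 to −0.037, Igf2 to 1.37, Grb10 to 1.38, Cdkn1c to 2.00, Dlk1 to 2.35 and Mest to 3.02.

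This ratio depended on Prg4, which encodes lubricin, the surface-zone lubricant. Prg4 made up 21.8% to 48.3% of the summed list FPKM at 2 months and 78.0% to 86.3% at 18 months. Without Prg4 the difference was −0.19 for H19, −0.74 for Peg3 and 1.96 for Igf2, each with overlapping groups. The other 7 genes were then higher relative to the list without overlap, by 1.10 for Plagl1, 2.00 for Meg3, 2.52 for Grb10, 2.97 for Dlk1, 3.03 for Cdkn1c, 3.79 for Mest and 3.96 for Igf2r. Plagl1 thereby turned from −0.60. The aged SD was then 0.38 for Meg3 and 0.51 for Peg3. These remained the smallest of the 10, beside 0.585 to 1.54 for the others.

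**Figure D4:**
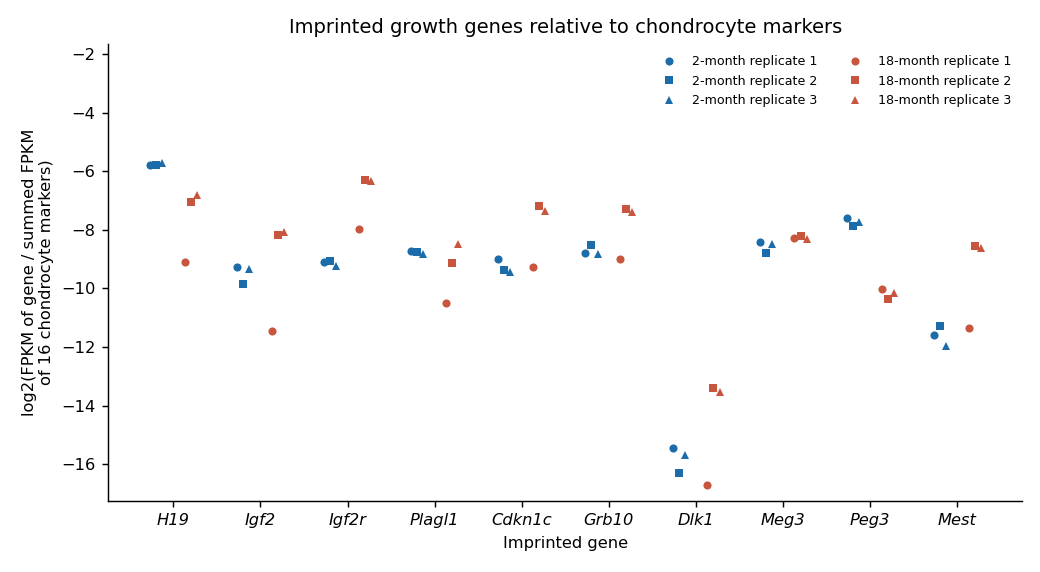
Log2 ratio of each gene's FPKM to the summed FPKM of 16 chondrocyte markers in the same library, with 1 point per library (blue 2 months, red 18 months). The 3 aged points lie together for Meg3 (SD 0.043) and Peg3 (SD 0.16) and apart for Igf2 (SD 1.91) and Dlk1 (SD 1.87).

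Beyond the 10 genes, a list of other imprinted genes had 41 of its 43 genes in the table and 37 tested. Of these, 20 were called lower (54.1%, beside 21.3% of all genes) and 0 higher (26 at an unadjusted p-value below 0.05 in either direction, edgeR). DESeq2 called 2 higher. The median log2 fold change was −1.72. The 5 largest falls were Slc38a4 (−9.39), an amino acid transporter gene, Zim1 (−9.04), Usp29 (−5.71), Ndn (−5.54), a MAGE family growth regulator, and Zdbf2 (−4.76). Slc38a4 went from 62.2 ± 18.8 to 0.0963 ± 0.0494 FPKM (SD, n = 3; edgeR adjusted p = 0.00083) and thus reached 2-month levels near those of Peg3. Gnas, the most abundant of the list and the gene of the stimulatory G protein, was lower by 1.05 on the log2 scale (standard error 0.20, edgeR adjusted p = 0.0080). Impact was at −1.82 (edgeR adjusted p = 0.0024). The 17 tested genes that were not called include Peg10 (−1.05), Blcap (−0.64), Trappc9 (−0.18), H13 (−0.17), Ube3a (−0.088), Peg13 (0.16) and Commd1 (0.73).

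Of 15 tested genes imprinted mainly in the placenta, 7 were called lower (46.7%) and 3 higher, beside 21.3% and 14.9% of all genes. The median log2 fold change was −0.99. The lower genes were led by Osbpl5 (−4.10, edgeR adjusted p = 0.0017), Dcn (−3.34, edgeR adjusted p = 0.0052), which encodes the matrix proteoglycan decorin, and Sfmbt2 (−2.72, edgeR adjusted p = 0.0010). Tnfrsf23, Tnfrsf22, Pon3 and Cd81 were lower by 1.02 to 1.29. Called higher were Slc22a3 (4.51, edgeR adjusted p = 0.0041), Gatm (4.34, edgeR adjusted p = 0.044) of creatine synthesis and Tspan32 (3.79, edgeR adjusted p = 0.0047). Slc22a3, an organic cation transporter gene, lies 174702 bases from Igf2r and is the nearest tested gene on that side. Slc22a3 thus moved against its neighbour Igf2r, from 0.0259 to 0.156 FPKM to 1.75 to 1.84 FPKM. The abundant Nap1l4 was at 0.77 and not called.

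Of 19 tested genes that set or keep imprints, 4 were called lower (21.1%) and 5 higher, beside 21.3% and 14.9% of all genes, so the share called lower was that of all genes. Their median log2 fold change was 0.48. Lower were Ctcfl (−4.49, edgeR adjusted p = 0.0057), Zfp57 (−2.0, edgeR adjusted p = 0.024), which guards imprints in the early embryo, the demethylase gene Tet1 (−1.29) and Ezh1 (−1.04). Higher were the maintenance methyltransferase gene Dnmt1 (1.92), Ezh2 (2.01) and Suz12 (1.05) of Polycomb complex 2, the insulator gene Ctcf (1.20) and Dnmt3l. In 2-month replicate 2, the young library with the most neutrophil markers, all of these but Dnmt3l were also above the mean of the other young libraries. The log2 differences were 1.97 for Ezh2, 1.34 for Dnmt1, 0.80 for Ctcf and 0.27 for Suz12. Dnmt3l had no count at 2 months and 46, 53 and 80 counts at 18 months, at least 17.4-fold higher than a floor of 3 counts per library. Trim28, the most abundant of the list and the partner of ZFP57, was at 0.46 and not called (edgeR adjusted p = 0.058). The number called lower fell from 4 to 2 without any 1 of 2-month replicates 1 and 3 and 18-month replicates 2 and 3.

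**Figure D5:**
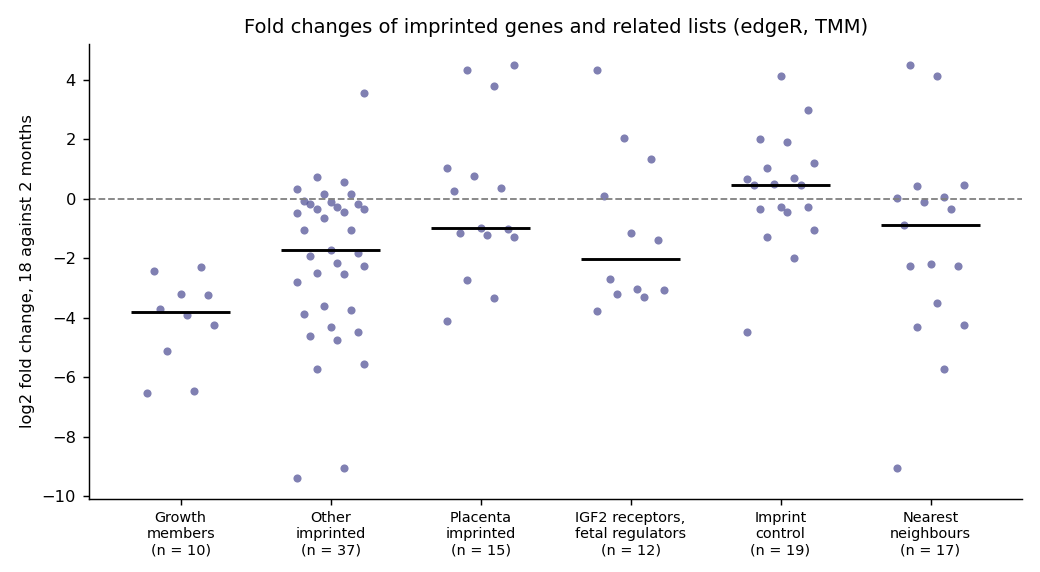
Log2 fold change between 18 and 2 months (edgeR, TMM) of each tested gene in 6 lists, with a black bar at the list's median and a dashed line at the median of all genes tested (−0.021); Dnmt3l is drawn at its bound. All 10 growth genes lie at or below −2.28, other imprinted genes have a median of −1.72, and imprint control genes lie on both sides of 0.

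The nearest tested genes on both sides of the 10 genes, these genes themselves left out, were 17 different genes. Of these, 7 were called lower, 2 higher and 8 neither, beside 21.3% lower and 14.9% higher of all genes, with a median log2 fold change of −0.89. Lower neighbours lay beside Peg3 (Zim1, Usp29), Meg3 (Rtl1), Dlk1 (Begain), Grb10 (Cobl, Ddc) and Igf2r (Gm49958, −3.50, edgeR adjusted p = 0.024). No neighbour of H19, Igf2, Plagl1, Cdkn1c or Mest was called lower. Of the lower neighbours, Zim1, Usp29, Rtl1 and Ddc are also counted above among the other imprinted genes. Cobl, Begain and Gm49958 are not. Of the neighbours that were not lower, Kcnq1, Slc22a18 and Slc22a3 are also in the imprinted lists above.

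By profile over the 6 libraries the gene most like H19 was Zim1 (Pearson r = 0.9999 on log2 TMM CPM + 1), followed by Wwtr1, Impg1, Wnt5b and Gm9856 (r = 0.9992 to 0.9993). Wwtr1 encodes the Hippo pathway coactivator TAZ and went from 29.1 to 31.1 FPKM to 4.29 to 4.73 FPKM. Wnt5b encodes a Wnt ligand of growth-plate chondrocytes and went from 26.0 to 29.6 FPKM to 0.959 to 1.32 FPKM. Impg1 had no count at 18 months. For Igf2 the closest were Vamp1, Ubr3, Ptp4a1, Nbdy and Ncoa2 (r = 0.9977 to 0.9985). Vamp1, of vesicle fusion, went only from 5.10 to 5.42 FPKM to 3.04 to 3.37 FPKM, since r does not weigh the size of a change. Such coefficients over 6 libraries are set mainly by the difference between the ages, and they are a description.

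Mature microRNAs are also encoded inside Igf2, Meg3 and Mest. In all, 9 mature sequences of 5 loci were found inside the 10 genes, each with a different seed. Those of Meg3 and Mest with an opposite arm are shown to set their seeds beside that of miR-675, with capitals at bases 2 to 8.
mmu-miR-770-5p: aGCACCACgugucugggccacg
mmu-miR-770-3p: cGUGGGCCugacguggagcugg
mmu-miR-335-5p: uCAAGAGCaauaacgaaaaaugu
mmu-miR-335-3p: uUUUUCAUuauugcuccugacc
Mir770 lies in an exon of Meg3 (chr12:109563692-109563785, plus strand) and Mir335 in an intron of Mest (chr6:30741299-30741396, plus strand). Each of these loci held 0 to 3 counts in any library, in these libraries of polyadenylated RNA.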

How the data were processed

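Articular cartilage of 3 libraries per age was analysed, each library as its own sample. Per the labels, polyadenylated RNA was made into stranded, paired-end libraries with unique molecular identifiers. The submitters' processing notes name cutadapt 1.9, HISAT2 2.0.4, UMI-tools, StringTie 1.3.4d, DESeq2 and edgeR, with no role or order. Deposited by the authors were raw counts per gene, as whole numbers, and FPKM values that the authors scaled by transcript length and library total. No column of values per library was left out (0). Positions follow the deposited table. Of its identifiers 99.7% were in GENCODE M21, and 91.3% of those had the same coordinates, so the build is GRCm38.

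The test on counts was edgeR 4.0.16 in R 4.3.3 (TMM, filterByExpr, quasi-likelihood test, no block), with Benjamini-Hochberg adjustment over 20397 genes. Standard errors were derived from the F statistic and the fold change. The smallest p-value of an exact permutation test of 3 against 3 libraries is 0.1. Replicates differed by more than counting noise and were all kept. Alternatives were limma 3.58.1 on log2(FPKM + 0.1), log2(FPKM + 1) and log2(TPM + 0.1), DESeq2 1.42.0, other scalings and filters, a replicate block and leaving out each library. Tests were tried on simulated data. The 10 genes, the lists and the rule for named genes (members, the most abundant and most changed genes of each list, the most abundant marker, neighbours, and the 5 profiles nearest to H19 and Igf2) were chosen with earlier results of these data known. Some further members of lists were named after their values were seen. Figures were drawn with matplotlib 3.10.9.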

Additional observations from a re-analysis of the deposited data

How the results depend on the processing

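Each of the 10 genes was lower at 18 months under all 16 alternatives in which it was tested, with log2 fold changes of −6.79 to −5.94 for H19, −4.60 to −3.24 for Igf2 and −7.95 to −5.25 for Peg3. Dlk1, tested in 15 of them, was called in all but limma on log2(FPKM + 1), where it was at −0.26 and 9 genes were called lower. Its levels lie far below that pseudocount. Rescaling to TPM moved the median of all genes to −0.33, and the genes of the network stayed lower relative to it, with Igf2r at −2.64. Over the 6 fits without 1 library, 10 of 10 genes were called lower in each. Beside them 3499 to 4576 of the 21356 to 21536 genes tested were called lower.

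With limma on log2(FPKM + 1), 2217 genes were called lower, with 12 called of the other imprinted genes (12 lower), 5 of the placenta genes (2 lower), 4 lower among IGF2 receptors and fetal growth regulators and 1 lower among imprint control genes. With a minimum of 1 for the mean FPKM, fewer genes were tested, and 12 other imprinted genes were called (12 lower), 6 IGF2 receptors and fetal growth regulators (4 lower) and 5 imprint control genes (2 lower and 3 higher). DESeq2 called 2 other imprinted genes higher. The cause was not tested for DESeq2 and the pseudocount. On the log2(FPKM + 0.1) scale 4365 genes were called higher and 4259 lower, and after rescaling to TPM 3109 and 5819.

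Without 1 library each, the number of genes called higher ran from 2095 to 5007 (5007 without 2-month replicate 2), of other imprinted genes called higher from 0 to 1 (1 without 2-month replicate 1 and without replicate 2), and of imprint control genes called lower from 2 to 4. Without 2-month replicate 2 and 18-month replicate 1 together, an alternative added after seeing the data, 4931 genes and 1 other imprinted gene were called higher. The difference in the Meg3 to Dlk1 ratio ran from −2.04 without 18-month replicate 1 to −0.41 without replicate 2. Relative to chondrocyte markers Igf2 turned to −0.27 without 18-month replicate 2 and to −0.31 without replicate 3, and was at 1.37 without replicate 1, and Plagl1 to 1.10 without Prg4, also added after seeing the data. With the replicate block 6032 of all genes were called, 3509 of them lower, and 10 of 10 genes of the network were called lower. Samples with the same number correlated by −0.087 to 0.094 in their deviations, and those with different numbers by −0.123 to 0.126. Since 2-month replicate 2 and 18-month replicate 1 stood apart, these values cannot decide whether the numbers pair the samples.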

Other observations

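The counts called in marker lists of other tissues stand beside 21.3% lower and 14.9% higher of all genes tested. The part of these markers in the results of the imprinted genes was not tested. Of tested muscle markers, led by Mylpf, 4 of 6 were called lower. For adipocyte markers, led by Fabp4, 1 of 4 was called higher. For endothelial markers, led by Pecam1, it was 1 of 7, close to the share of all genes. Of B lymphocyte markers 0 of 7 were called (1 at an unadjusted p-value below 0.05, edgeR), of erythroid markers 3 of 9 and of macrophage markers 2 of 6 higher. Of fibroblast and tendon markers 6 of 10 were called lower and 2 higher, and of osteoblast markers 4 of 10 lower. Of the sex-chromosome genes, Xist was called lower and the 4 Y-linked genes higher.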
